A study of Homo sapiens with 24 samples.

Results

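The 5 genes described here handle zinc and other heavy metals: SLC30A1, MT1X, MT2A, MT1E and MTF1. They were taken by matching these symbols to the Ensembl gene IDs of the deposited count table, and are 5 of its 57992 genes. Of the 5, 4 held enough counts to be tested, and MT1E, with 0 counts in all 24 libraries, was not. The libraries were made from HEK293T, a line of human embryonic kidney origin, stably expressing TIA1-miniSOG, G3BP2-miniSOG or miniSOG-DDX6. The lines with TIA1 or G3BP2, proteins of stress granules, were labelled after 0.5 mM sodium arsenite, and the line with DDX6, an RNA helicase of processing bodies, was labelled both under arsenite and unstressed. The labels give the arsenite as 1 hr in all, and do not say whether a line is a single clone. In blue light miniSOG oxidises guanines of RNA close to the bait, and the probe propargylamine (10 mM) then lets that RNA be joined to biotin and captured on streptavidin. Each of the 4 combinations of line and treatment had 2 labelled captures, 2 inputs (the same kind of RNA, not captured) and 2 no-probe captures, which went through light and capture without propargylamine.

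Metallothioneins are small proteins rich in cysteine that bind zinc, copper and cadmium in the cytosol. SLC30A1, also called ZnT1, is the zinc transporter of the plasma membrane that carries zinc out of the cell. MTF1 is the zinc-sensing transcription factor that binds metal response elements in the promoters of the metallothioneins and of SLC30A1, and arsenite is among the metals and metalloids known to raise the mRNAs of its targets. Stress granules and processing bodies are RNA and protein bodies without a membrane, and long mRNAs that are poorly translated are known to gather in stress granules more than short ones.

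Library totals were 3344960 to 5919467 counts in labelled captures, 2511043 to 3825961 in inputs and 1129510 to 3472565 in no-probe captures. Transcripts of the mitochondrial genome took 23.7% to 31.6% of the counts of the inputs and 1.74% to 8.48% of those of the labelled captures, so levels are given as CPM with edgeR's TMM scaling (read counts of a gene relative to the scaled library total), which sets the median change of genes close to 0. Counts were compared with edgeR's quasi-likelihood test in 1 model of all 24 libraries, two-sided, with Benjamini-Hochberg adjustment over 14360 tested genes and a threshold of 0.05. Log2 fold changes are given with ± 1 SE of the model, and levels with ± 1 SD, n = 2 libraries. Whether the 2 replicates of a group came from different cultures is not in the labels, so p-values measure the spread between libraries, which may be technical. The HEK293T marker genes LIN28B, PAX2, NEFL and NEFM were present and tested, and 6 markers of blood, liver, connective tissue and vessel cells held 0 to 10 counts over all 24 libraries.

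The metallothionein members are near copies of each other, which bears on every count of them. The 3 coding sequences are shown because their likeness limits how far short reads can tell the genes apart. They are the principal transcripts of GENCODE release 29 on GRCh38, 5′ to 3′ from start to stop codon, and capitals mark the bases of MT1X and MT1E that differ from MT2A.
MT2A: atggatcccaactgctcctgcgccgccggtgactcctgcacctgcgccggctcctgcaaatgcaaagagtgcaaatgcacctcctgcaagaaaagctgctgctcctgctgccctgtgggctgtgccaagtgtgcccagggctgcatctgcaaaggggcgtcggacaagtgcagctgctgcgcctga
MT1X: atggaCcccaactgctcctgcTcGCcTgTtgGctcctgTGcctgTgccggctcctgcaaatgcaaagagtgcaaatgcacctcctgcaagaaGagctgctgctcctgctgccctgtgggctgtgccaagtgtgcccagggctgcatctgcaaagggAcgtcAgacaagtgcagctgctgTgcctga
MT1E: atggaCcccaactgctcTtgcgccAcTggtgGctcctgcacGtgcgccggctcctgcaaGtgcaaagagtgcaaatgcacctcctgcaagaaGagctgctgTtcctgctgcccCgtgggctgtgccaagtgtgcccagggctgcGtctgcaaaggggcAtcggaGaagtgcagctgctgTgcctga
Each of the 3 holds 186 bases in 3 coding exons, and 20 of its 61 codons (32.79%) code for cysteine. MT1X and MT1E each differ from MT2A at 14 bases (92.47% identity), and MT1X and MT1E differ from each other at 17 (90.86% identity).

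The 3 metallothionein genes lie on the plus strand of chromosome 16 in GRCh38. MT2A spans chr16:56608199-56609497 with a transcript of 786 bases, MT1E spans chr16:56625475-56627112 with 704 bases, and MT1X spans chr16:56682424-56684196 with 450 bases. SLC30A1 (chr1:211571568-211578742) and MTF1 (chr1:37809567-37859620) lie on the minus strand of chromosome 1, with 2 exons in 5474 bases and 11 exons in 7972 bases. The metallothionein transcripts are thus among the shortest of those tested and the other members among the longest: 2.14% of tested genes were shorter than MT1X, 5.54% shorter than MT2A, 80.74% shorter than SLC30A1 and 92.59% shorter than MTF1. Of all stretches of 50 bases in a transcript, 45.14% of those of MT1X also occur in other genes, against 4.88% for MT2A, 5.34% for MT1E, 0.64% for MTF1 and 0 for SLC30A1. The label forms on guanines, and 12.33% of tested genes had a smaller share of G than SLC30A1, 31.26% than MT1X, 36.66% than MTF1 and 78.59% than MT2A. The handling of reads that fit several genes is not given in the sources used here, so the counts of MT1X in particular are uncertain. Among the near copies, the pseudogene MT1XP1 took 7 counts, MT1P1 3 and MT2P1 0 over the 24 libraries. Of the other genes that share stretches with MT1X, MT1F held 54 counts, MT1M 1, and MT1A and MT1G 0. As shared reads may be missing from every gene they fit, these counts do not show how many reads of MT1X or MT2A were lost. MT1X overlaps AC026461.1, which held 0 counts, and MTF1 overlaps AL929472.4, which held 11, and the strand setting of the counting is not given in the sources used here.

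The promoters are shown because metal response elements are what the 3 target genes share as background. Each sequence is the 250 bases before the RefSeq start on the gene's own strand, in GRCh38.p14, and capitals mark matches of the element's core, TGCACNC or TGCGCNC, on either strand. The 2 forms cannot match the same 7 bases on 1 strand.
MT2A (chr16:56608334-56608583, plus strand): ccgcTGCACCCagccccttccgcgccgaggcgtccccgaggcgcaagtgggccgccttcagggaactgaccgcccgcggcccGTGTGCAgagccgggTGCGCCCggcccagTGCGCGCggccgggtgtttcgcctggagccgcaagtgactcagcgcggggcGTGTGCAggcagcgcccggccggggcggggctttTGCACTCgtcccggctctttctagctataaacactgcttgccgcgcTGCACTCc
MT1X (chr16:56682220-56682469, plus strand): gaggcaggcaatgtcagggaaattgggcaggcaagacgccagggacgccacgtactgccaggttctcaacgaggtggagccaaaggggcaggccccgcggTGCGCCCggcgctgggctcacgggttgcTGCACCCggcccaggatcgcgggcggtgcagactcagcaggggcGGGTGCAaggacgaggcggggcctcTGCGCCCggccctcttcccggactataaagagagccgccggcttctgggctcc
SLC30A1 (chr1:211579162-211579411, minus strand): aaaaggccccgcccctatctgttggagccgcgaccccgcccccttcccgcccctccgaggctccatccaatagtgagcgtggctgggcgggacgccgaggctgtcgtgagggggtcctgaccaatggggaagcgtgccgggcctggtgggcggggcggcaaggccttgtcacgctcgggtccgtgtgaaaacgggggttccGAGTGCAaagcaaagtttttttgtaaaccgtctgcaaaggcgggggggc
MT2A held 7 matches, a number reached by 0.0313% of 35116 RefSeq promoters of this length. MT1X held 4, a number reached by 0.37% of them. SLC30A1 held 1, and 24.8% of promoters held at least 1. MTF1 held 0 matches in its own window, chr1:37859593-37859842 on the minus strand. GENCODE places several of these starts elsewhere, as for MT2A, whose GENCODE gene begins before this window, and a match of letters is not a measured binding site. MT1E is named only.

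**Figure D1:**
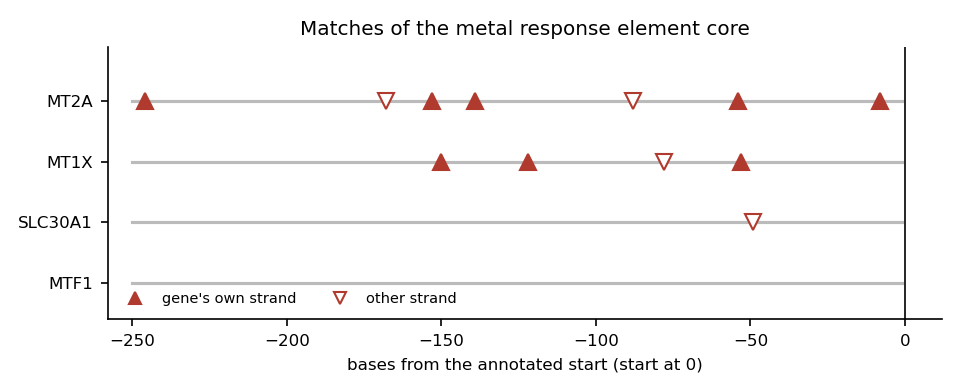
Matches of the metal response element core in the 250 bases before the RefSeq start of 4 genes, with distance from the start in bases on the x axis and 1 gene per row; filled triangles are on the gene's own strand and open ones on the other. The 7 matches of MT2A spread over the whole window, the 4 of MT1X lie between 150 and 53 bases before the start, and the only match of SLC30A1 begins 49 bases before it.

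Per kilobase of transcript, SLC30A1, MT2A and MT1X stood above MTF1 in the inputs under arsenite, and SLC30A1 and MT2A also in unstressed cells. In the inputs of the TIA1 line the mean was 13.4 CPM per kb for MT2A, 13.0 for MT1X, 8.66 for SLC30A1 and 2.48 for MTF1, and the ranges of MT2A and MT1X overlapped. In the G3BP2 line the order was MT1X at 19.0 CPM per kb, SLC30A1 at 8.81, MT2A at 8.37 and MTF1 at 2.51, with SLC30A1 and MT2A overlapping. In the DDX6 line under arsenite MT2A stood at 11.5 CPM per kb, MT1X at 9.30, SLC30A1 at 7.55 and MTF1 at 2.36, and the first 3 did not separate beyond their spread. In the unstressed DDX6 line the order was MT2A at 6.48 CPM per kb, SLC30A1 at 3.34, MT1X at 2.33 and MTF1 at 2.05, where MT1X and MTF1 overlapped. The length used for MT2A, 786 bases, is that of a GENCODE transcript. Its GENCODE gene begins before the RefSeq start, so a transcript from the RefSeq start may be shorter. The CPM per kb of MT2A would then be higher. Its place in these orders, its length rank and its values with the length trend removed thus rest on the GENCODE length.

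SLC30A1, the zinc exporter, was higher in the labelled capture than in the input with TIA1 under arsenite and with DDX6 in unstressed cells, and did not pass the test with G3BP2 or with DDX6 under arsenite. It was the best counted of the 5, with 4354 counts over 24 libraries, and in these bulk libraries fewer cells with the mRNA and less of it per cell cannot be told apart. With TIA1 the labelled captures held 89.4 and 77.7 CPM and the inputs 47.4 and 47.4, so the groups did not overlap. SLC30A1 rose by 0.82 ± 0.24 on the log2 scale, or 1.76-fold, with edgeR's adjusted p = 0.00841. In unstressed DDX6 cells its captures held 43.2 and 45.2 CPM and its inputs 19.2 and 17.4, again apart. This was a rise of 1.27 ± 0.27 on the log2 scale, or 2.41-fold, with edgeR's adjusted p = 0.000319. With G3BP2 the captures at 58.4 and 55.7 CPM lay above the inputs at 46.4 and 50.01, but the difference in SLC30A1 of 0.25 ± 0.24 on the log2 scale (95% interval -0.24 to 0.73) did not pass, with edgeR's adjusted p = 0.438. Under arsenite with DDX6 the SLC30A1 captures at 37.8 and 74.5 CPM overlapped the inputs at 32.2 and 50.5, and the difference of 0.41 ± 0.24 did not pass either (edgeR's adjusted p = 0.186). For the reading of these counts, 19.4% of all tested genes were higher in the TIA1 capture, 20.8% in the G3BP2 capture, 20.4% in the DDX6 capture under arsenite and 22.9% in the unstressed DDX6 capture.

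The call for SLC30A1 with TIA1 rested on all 4 libraries but 1. Its adjusted p from edgeR was 0.0788 without replicate 1 of the capture, 0.0602 without replicate 1 of the input and 0.0597 without replicate 2 of the input. With DDX6 under arsenite replicate 2 held more SLC30A1 than replicate 1 in all 3 kinds of library, and the difference of capture and input ran from -0.12 without replicate 2 of the capture to 0.86 (edgeR's adjusted p = 0.00608) without replicate 1 of it. It was 0.78 (adjusted p = 0.0479) without replicate 2 of the input, and with a replicate term of its own in each combination, a fit added after the data were seen, 0.41 passed with an edgeR adjusted p of 0.0372. Scaled to total counts, which moved the median of all genes by 0.65, 0.53, 0.54 and 0.46 with TIA1, G3BP2, DDX6 under arsenite and unstressed DDX6, SLC30A1 also passed with G3BP2 (0.78) and with DDX6 under arsenite (0.95), and relative to that shift it stood at 0.25 and 0.41. SLC30A1 is longer than most genes, and with the trend of the fold change over transcript length removed its difference was 0.50 with TIA1 and -0.073 with G3BP2, values without a test.

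Against the no-probe captures, which show what the beads hold without label, SLC30A1 was higher in the same 2 combinations. With TIA1 the no-probe captures held 39.4 and 46.3 CPM, below both labelled captures, a difference of 0.96 ± 0.25 (edgeR's adjusted p = 0.00211). In unstressed DDX6 cells they held 15.7 and 24.5 CPM of SLC30A1, a difference of 1.09 ± 0.28 (adjusted p = 0.00154, edgeR). With G3BP2, at 36.5 and 44.5 CPM, the difference of 0.51 ± 0.27 (95% interval -0.03 to 1.06) did not pass (edgeR's adjusted p = 0.112). It passed with total counts (0.83), with no filter (0.79), with the G3BP2 libraries alone (0.56) and with a replicate term in each combination (0.52). Total counts moved the median of all genes by 0.31 here, and relative to that shift SLC30A1 stood at 0.51. The shift of the median with no filter was not computed, so the 0.79 may include one. For DDX6 under arsenite the no-probe captures, at 43.7 and 75.4 CPM, overlapped the labelled ones, and SLC30A1 differed by -0.12 ± 0.24 (adjusted p = 0.721, edgeR). That last value was -0.66 (adjusted p = 0.0408) without replicate 2 of the labelled capture, 0.32 without replicate 1 of it and 0.34 without replicate 2 of the no-probe capture. In either direction 45.4% of all tested genes passed this comparison with TIA1, 45.4% with G3BP2, 42.7% with DDX6 under arsenite and 48.1% with unstressed DDX6.

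**Figure D2:**
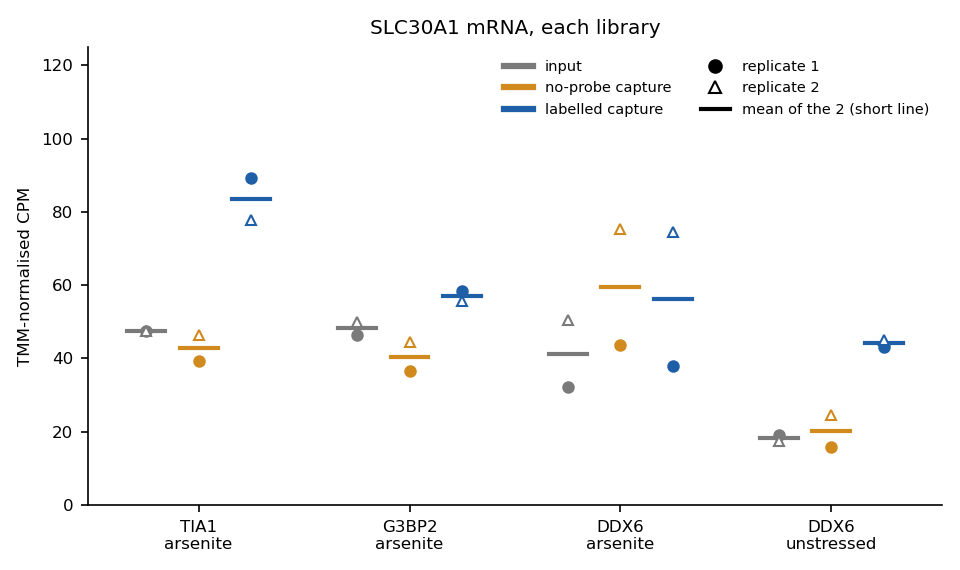
SLC30A1 level in TMM-normalised CPM (y axis, linear from 0) in each of 24 libraries, by line and treatment (x axis); colours give the kind of library, filled circles replicate 1, open triangles replicate 2 and short lines the mean of 2. The labelled captures of TIA1, at 89.4 and 77.7 CPM, stand above the input and no-probe libraries of that line, while the DDX6 libraries under arsenite split by replicate in all 3 kinds.

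MT2A, the most widely expressed human metallothionein, went the other way and was lower in the labelled capture than in the input in all 4 combinations. With TIA1 the captures held 2.67 and 1.12 CPM of MT2A and the inputs 11.1 and 9.97. With G3BP2 the captures held 1.34 and 0.847 CPM and the inputs 5.30 and 7.85. For DDX6 under arsenite they held 1.99 and 1.31 CPM against 5.91 and 12.1 in the inputs, and in unstressed cells 1.06 and 0.885 CPM against 5.37 and 4.83. No capture reached the lowest MT2A input of its combination. These values rest on 5 to 18 counts in a capture and 15 to 37 in an input, although each capture, apart from replicate 2 of DDX6 under arsenite, had more total counts than both inputs of its combination.

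MT2A fell by 2.41 ± 0.53 on the log2 scale with TIA1, or 5.32-fold (edgeR's adjusted p = 0.000421). It fell by 2.50 ± 0.60 with G3BP2, or 5.67-fold, with an edgeR adjusted p of 0.00081. With DDX6 it fell by 2.40 ± 0.57 under arsenite, or 5.29-fold (adjusted p = 0.000769, edgeR), and by 2.35 ± 0.62 in unstressed cells, or 5.10-fold (edgeR's adjusted p = 0.00189). The 4 estimates for MT2A thus lay within 1 SE of each other. Of all tested genes 16.4% were lower in the TIA1 capture, 17.5% in the G3BP2 capture, 17.3% in the DDX6 capture under arsenite and 19.6% in the unstressed one. All 4 calls of MT2A held when each library was left out in turn. Without replicate 1 of the TIA1 capture MT2A stood at -3.21, and without replicate 2 of the DDX6 input under arsenite at -1.78.

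Short mRNAs were low in the captures in general, and MT2A was lower than most of them. Over the 248 tested protein-coding genes with a transcript of at most 800 bases, the median log2 difference of capture and input was -1.13 with TIA1, -1.16 with G3BP2, -0.66 with DDX6 under arsenite and -0.81 in unstressed cells, while that of all tested genes lay between -0.02 and 0.02. Of these short genes 3.23% lay below MT2A with TIA1, 7.66% with G3BP2, 5.65% with DDX6 under arsenite and 4.44% with unstressed DDX6. With the trend over transcript length removed MT2A stood at -1.76, -1.67, -1.84 and -1.69 in the same order, values without a test. How much of the difference goes with length was not tested.

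MT2A was also lower in labelled than in no-probe captures. The no-probe captures held 6.66 and 13.7 CPM with TIA1, 3.13 and 5.87 with G3BP2, 1.47 and 7.33 with DDX6 under arsenite and 4.19 and 3.07 in unstressed cells. MT2A fell by 2.38 ± 0.54 with TIA1 (edgeR's adjusted p = 0.000427). It fell by 1.89 ± 0.70 with G3BP2 (adjusted p = 0.0283, edgeR) and fell by 1.83 ± 0.68 with unstressed DDX6 (edgeR's adjusted p = 0.0247). With DDX6 under arsenite the groups overlapped and the difference of -1.42 ± 0.63 did not pass (edgeR's adjusted p = 0.0642). Leaving out a library ended the call with TIA1 without replicate 2 of the no-probe capture (-1.75, adjusted p = 0.0545) and moved it to -3.17 without replicate 1 of the labelled one. It ended the call with G3BP2 without replicate 2 of the labelled (-1.64, adjusted p = 0.0946) or of the no-probe capture (-1.46, adjusted p = 0.225), and with unstressed DDX6 without any 1 of the 4 libraries (-1.62 to -2.07, adjusted p of edgeR 0.0631 to 0.125). The call of MT2A with G3BP2 was also lost with total counts (-1.60, adjusted p = 0.056) and with no filter (-1.61, adjusted p = 0.0627), and that with unstressed DDX6 with total counts (-1.54, adjusted p = 0.051). With the length trend removed, and without a test, MT2A stood at -1.66, -0.95, -0.79 and -1.16 against the no-probe captures with TIA1, G3BP2, DDX6 under arsenite and unstressed DDX6. For MT2A with DDX6 under arsenite the value was 0.20 without replicate 2 of the no-probe capture and -2.09 (adjusted p = 0.00767) without replicate 1 of it.

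MT1X, another metallothionein induced by metals, was lower in the labelled capture with G3BP2 and, more weakly supported, with DDX6 under arsenite. With G3BP2 its captures held 1.48 and 1.52 CPM (11 and 9 counts) and its inputs 9.28 and 7.85 (28 and 19 counts). MT1X fell by 2.49 ± 0.57 on the log2 scale, or 5.64-fold, with edgeR's adjusted p = 0.00056. With DDX6 under arsenite the captures held 1.27 and 1.31 CPM (7 and 5 counts) and the inputs 4.43 and 3.94 (12 and 12 counts), a fall of 1.68 ± 0.69 for MT1X (adjusted p = 0.0465, edgeR). With TIA1 the captures held 3.12 and 1.49 CPM (21 and 8 counts) and the inputs 5.76 and 5.98 (13 and 12 counts), and the difference of -1.30 ± 0.58 missed the threshold (edgeR's adjusted p = 0.0793). In unstressed DDX6 cells MT1X was close to the limit of counting, with 5 and 1 counts in the captures and 4 and 3 in the inputs, and the difference of -1.17 ± 1.01 was not resolved (edgeR's adjusted p = 0.34).

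Of the 2 MT1X calls against the input only that with G3BP2 held when libraries were left out. The call with DDX6 under arsenite was lost without replicate 1 (-1.63, adjusted p = 0.147) or 2 (-1.68, adjusted p = 0.111) of the capture and without replicate 1 (-1.59, adjusted p = 0.157) or 2 (-1.76, adjusted p = 0.0955) of the input, by edgeR. It was also lost with total counts (-1.14, adjusted p = 0.15) and with the DDX6 arsenite libraries alone (-1.68, adjusted p = 0.057). The difference with TIA1 was -1.96 without replicate 1 of the capture and -0.92 without replicate 2 of it, and that in unstressed cells -2.58 and -0.46, none of which passed. With TIA1 the difference passed with the libraries of that line alone (-1.33, adjusted p = 0.0282) and with a replicate term in each combination (-1.35, edgeR's adjusted p = 0.0391). With the length trend removed MT1X stood at -0.24 with TIA1, -1.05 with G3BP2, -0.60 with DDX6 under arsenite and 0.025 in unstressed cells, and 39.52%, 8.06%, 12.5% and 28.23% of the 248 short genes lay below its plain values, in that order.

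MT1X was also lower in labelled than in no-probe captures under arsenite. The no-probe captures held 17.8 and 8.65 CPM with TIA1, 15.1 and 17.6 with G3BP2 and 3.44 and 17.5 with DDX6 under arsenite, all above the labelled captures of the same line. MT1X fell by 2.46 ± 0.53 with TIA1 (edgeR's adjusted p = 0.00026). It fell by 3.41 ± 0.57, or 10.6-fold, with G3BP2 (adjusted p = 7.91e-06, edgeR), and it fell by 3.04 ± 0.65 with DDX6 under arsenite (edgeR's adjusted p = 0.000137). In unstressed DDX6 cells the no-probe captures held 3 and 1 counts, and the difference of -0.85 ± 1.15 did not pass (edgeR's adjusted p = 0.552). Without replicate 2 of the no-probe capture the call with DDX6 under arsenite was lost (-1.40, adjusted p = 0.194), and without replicate 1 of it the value was -3.74. With TIA1, MT1X stood at -3.12 without replicate 1 of the labelled and at -1.86 without replicate 1 of the no-probe capture, and both passed. With the length trend removed, and without a test, MT1X stood at -1.31 with TIA1, -1.82 with G3BP2, -1.84 with DDX6 under arsenite and 0.23 in unstressed cells.

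**Figure D3:**
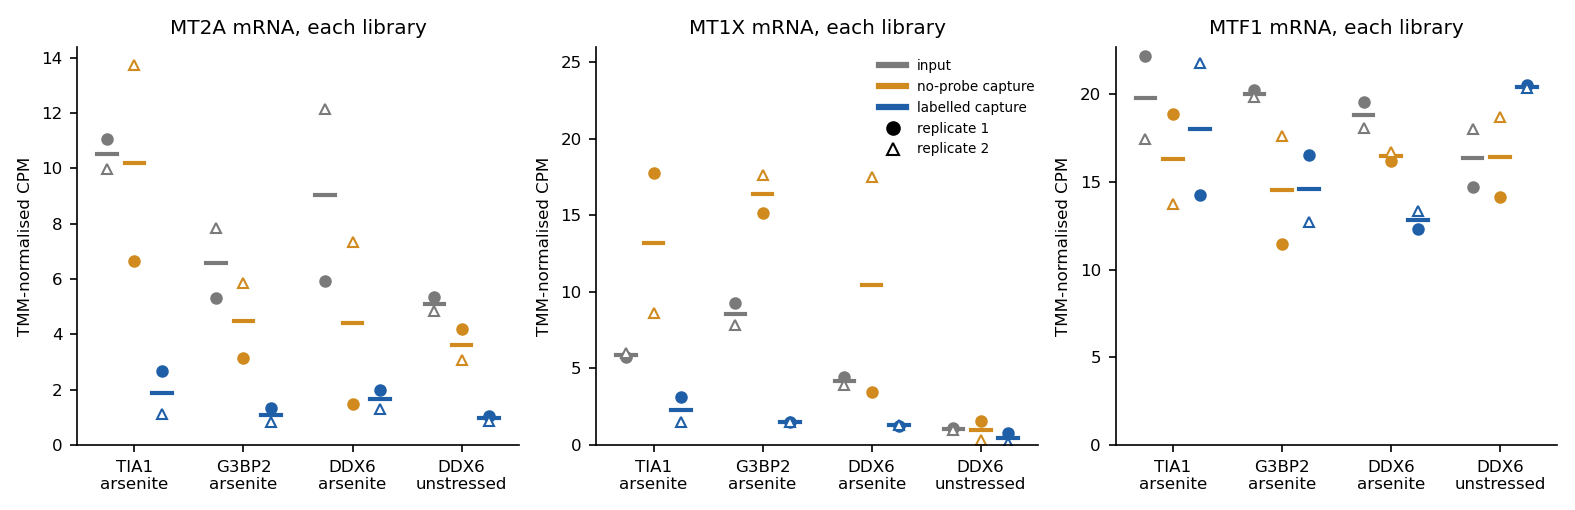
Levels of MT2A, MT1X and MTF1 in TMM-normalised CPM (y axes, linear from 0, each with its own range) in each of 24 libraries, by line and treatment; colours give the kind of library, filled circles replicate 1, open triangles replicate 2 and short lines the mean of 2. The labelled captures of MT2A, all at or below 2.67 CPM, lie under every input of the same combination, and the labelled captures of MT1X under arsenite, all at or below 3.12 CPM, lie under the input and no-probe libraries of the same line, while MTF1 stays between 11.5 and 22.2 CPM in all libraries.

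MTF1, the transcription factor of the group, did not pass the test in any of the captures. Its level ran from 11.5 to 22.2 CPM over the 24 libraries, on 21 to 138 counts. With TIA1 its captures at 14.2 and 21.8 CPM overlapped its inputs at 22.2 and 17.4, a difference of -0.15 ± 0.25 (edgeR's adjusted p = 0.673). With G3BP2 the MTF1 captures at 16.5 and 12.7 CPM lay below the inputs at 20.2 and 19.8, by -0.45 ± 0.24 (adjusted p = 0.148, edgeR). With DDX6 under arsenite the captures at 12.3 and 13.3 CPM lay below the inputs at 19.6 and 18.1, by -0.56 ± 0.26 (edgeR's adjusted p = 0.0847), and in unstressed cells at 20.5 and 20.4 above 14.7 and 18.0, by 0.33 ± 0.24 (edgeR's adjusted p = 0.276). Against no-probe captures MTF1 differed by 0.14, 0.07, -0.37 and 0.29 with TIA1, G3BP2, DDX6 under arsenite and unstressed DDX6, with edgeR adjusted p of 0.702, 0.87, 0.281 and 0.345. Scaled to total counts MTF1 passed in the unstressed DDX6 capture against input (0.79, adjusted p = 0.0111) and with TIA1 against the no-probe capture (0.98, adjusted p = 0.00332). That scaling moved the median of all genes by 0.46 and 0.84 in these comparisons, and relative to the shift MTF1 stood at 0.33 and 0.14.

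**Figure D4:**
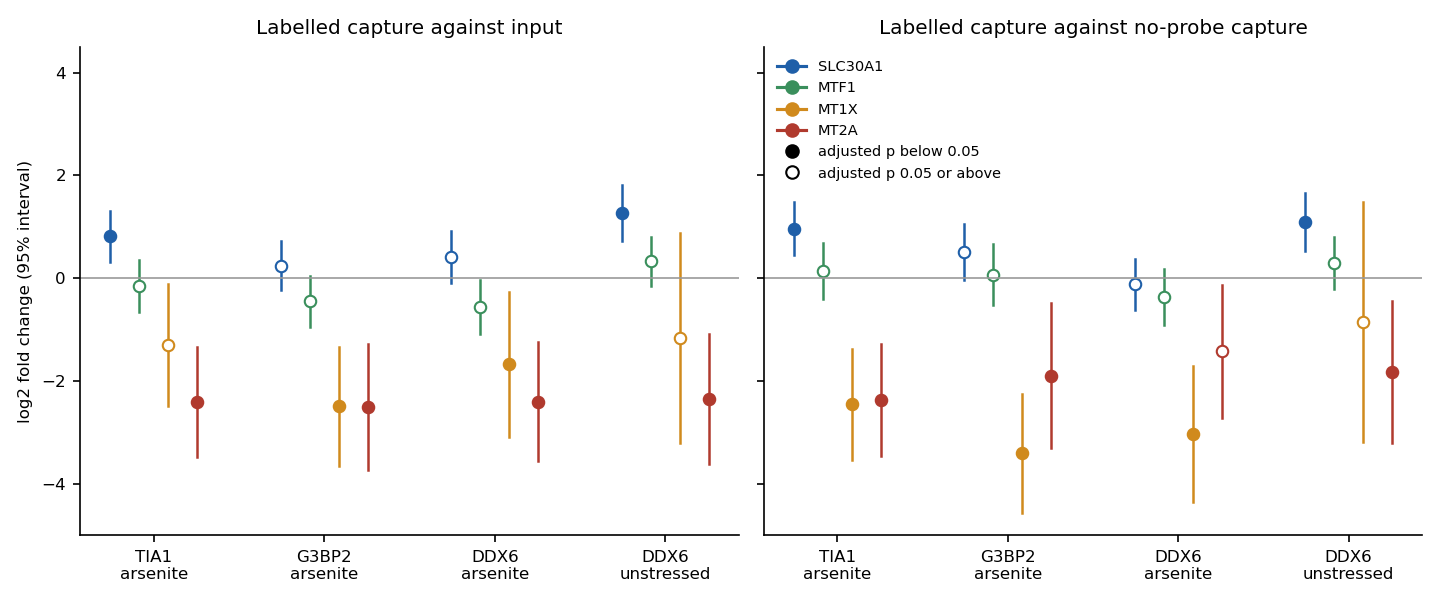
Log2 fold change (y axis) of 4 genes in the labelled capture against the input (left) and against the no-probe capture (right), by line and treatment (x axis); points are edgeR estimates, lines 95% intervals, and filled points have an adjusted p below 0.05. MT2A lies near -2.4 in all 4 comparisons with the input, SLC30A1 is filled above 0 with TIA1 and with unstressed DDX6, and every point of MTF1 is open.

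MT1E held 0 counts in each library. A count of 0 allows up to 3 counts, or 0.403 to 2.52 CPM depending on the library, for counting error alone. Lower levels of MT1E were not detectable at this depth. Of 17 genes and pseudogenes of the metallothionein family, 9 held 0 counts and 2, MT1X and MT2A, were tested. MT1F held 54 counts in 19 libraries, too few for the test, and the others held at most 4.

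Without probe, no member differed between capture and input by edgeR's test or by DESeq2, in any combination. At an unadjusted p below 0.05 stood 1 member with TIA1, 0 with G3BP2, 2 with DDX6 under arsenite and 0 in unstressed cells, beside 985, 1973, 930 and 1194 of all genes. The background was as low, with 0.0139%, 0.167%, 0% and 0.0139% of all tested genes past the threshold in the same order, the third being 0 genes by DESeq2 too. MT1X was 1.15 ± 0.54 higher on the log2 scale in the no-probe capture than in the input with TIA1 (edgeR's adjusted p = 0.71), 0.91 ± 0.49 higher with G3BP2 (adjusted p = 0.414, edgeR) and 1.36 ± 0.55 higher with DDX6 under arsenite (edgeR's adjusted p = 0.681). The first and the third were below 0.05 before adjustment. Without replicate 2 of the no-probe capture the third turned to -0.28, and without replicate 1 of it the value was 2.06.

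SLC30A1 was higher under arsenite in the inputs and no-probe captures of the DDX6 line, the only line with unstressed libraries. In the inputs SLC30A1 held 32.2 and 50.5 CPM under arsenite and 19.2 and 17.4 without it, with no overlap. The rise was 1.18 ± 0.28 on the log2 scale, or 2.27-fold, with edgeR's adjusted p = 0.0256. In the no-probe captures it held 43.7 and 75.4 CPM against 15.7 and 24.5, a rise of 1.54 ± 0.29, or 2.90-fold, with edgeR's adjusted p = 0.00298. In the labelled captures SLC30A1 held 37.8 and 74.5 CPM against 43.2 and 45.2, and the difference of 0.33 ± 0.23 did not pass (edgeR's adjusted p = 0.448). The background of genes that rose was 0.362% in the inputs, 1.01% in the no-probe captures and 1.16% in the labelled captures, and that of genes that fell 0.787%, 1.39% and 2.77%. Of the 4 members tested, 1 rose in the inputs, 2 in the no-probe captures and 0 in the labelled captures by edgeR's adjusted p, and none fell in any of these 3 comparisons. In the labelled captures 1 member, MTF1, stood at an unadjusted p below 0.05 by edgeR, with a lower level under arsenite. DESeq2 called 0 there.

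The second member that rose in the no-probe captures was MT1X. It held 7 and 43 counts (3.44 and 17.5 CPM) under arsenite and 3 and 1 counts (1.57 and 0.341 CPM) without it. The rise of 3.64 ± 0.95 on the log2 scale, or 12.5-fold, had a 95% interval of 1.71 to 5.56 and an edgeR adjusted p of 0.007. In the inputs MT1X held 4.43 and 3.94 CPM under arsenite against 1.13 and 0.966, with no overlap, but on 12 and 12 against 4 and 3 counts the difference of 1.95 ± 0.81 did not pass (edgeR's adjusted p = 0.193). In the labelled captures its difference was 1.44 ± 0.92 (edgeR's adjusted p = 0.352), with 2.86 without replicate 1 unstressed and 0.75 without replicate 2 unstressed.

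MT2A and MTF1 did not pass in any kind of library. MT2A differed by 0.83 ± 0.49 in the inputs (5.91 and 12.1 CPM against 5.37 and 4.83, edgeR's adjusted p = 0.402), by 0.37 ± 0.63 in the no-probe captures (edgeR's adjusted p = 0.788) and by 0.78 ± 0.69 in the labelled captures (edgeR's adjusted p = 0.548). MTF1 differed by 0.21 ± 0.26 in the inputs, with edgeR's adjusted p = 0.73, and by -0.02 ± 0.28 in the no-probe captures, with an edgeR adjusted p of 0.977. In the labelled captures MTF1 held 12.3 and 13.3 CPM under arsenite and 20.5 and 20.4 without it, a difference of -0.68 ± 0.23 with edgeR's adjusted p = 0.0936. With a replicate term in each combination, added after the data were seen, that fall of MTF1 passed (adjusted p = 0.0422, edgeR). In a comparison between combinations, however, such a term takes spread between replicates out of the error. That pass therefore cannot decide whether MTF1 fell.

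Each arsenite call depended on single libraries. For SLC30A1 in the inputs it was lost without replicate 2 under arsenite (0.81, edgeR's adjusted p = 0.706), without replicate 1 unstressed (1.26, adjusted p = 0.19) and without replicate 2 unstressed (1.11, adjusted p = 0.253). For SLC30A1 in the no-probe captures it was lost without replicate 2 under arsenite (1.08, edgeR's adjusted p = 0.114) and without replicate 1 unstressed (1.30, adjusted p = 0.0835), and in the labelled captures the difference was 0.77 (adjusted p = 0.0266) without replicate 1 under arsenite and -0.21 without replicate 2. For MT1X in the no-probe captures it was lost without replicate 2 under arsenite (2.00, edgeR's adjusted p = 0.368) and without replicate 2 unstressed (2.76, adjusted p = 0.111), and the value was 4.34 without replicate 1 under arsenite and 4.86 without replicate 1 unstressed. In a fit of the no-probe captures of the DDX6 line alone SLC30A1 and MT1X did not pass, with edgeR adjusted p of 0.0877 and 0.146.

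**Figure D5:**
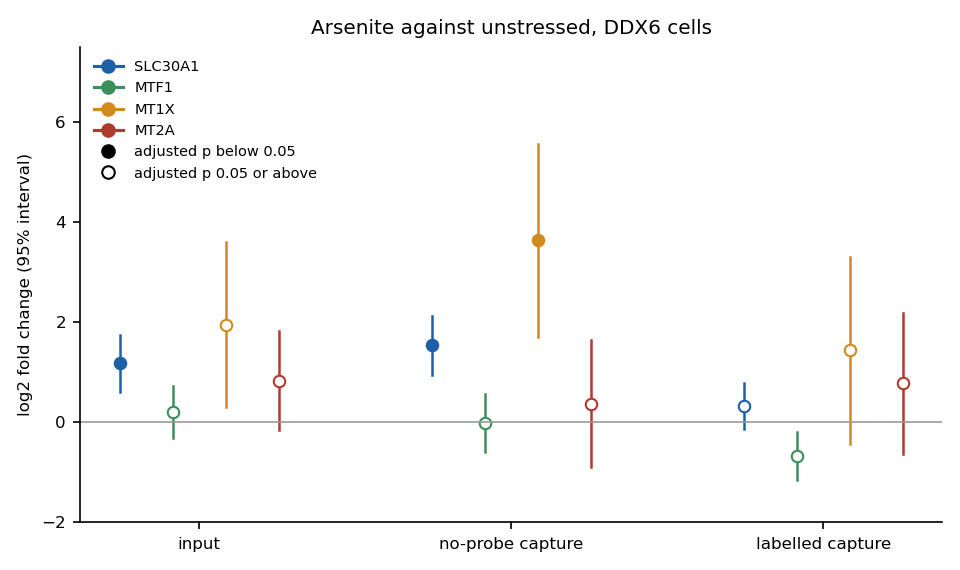
Log2 fold change (y axis) of 4 genes under arsenite against unstressed in the DDX6 line, by kind of library (x axis); points are edgeR estimates, lines 95% intervals, and filled points have an adjusted p below 0.05. SLC30A1 is filled in the inputs (1.18) and no-probe captures (1.54), MT1X in the no-probe captures (3.64), and no gene is filled in the labelled captures.

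No member differed in enrichment between baits, or between DDX6 with and without arsenite, by edgeR or DESeq2. The background was 3.61% of all tested genes for TIA1 against G3BP2, 2.35% for DDX6 against TIA1, 0.0487% for DDX6 against G3BP2 and 0.0209% for DDX6 under arsenite against unstressed, and these comparisons share captures and inputs. At an unadjusted p below 0.05 stood 0 members in each of the first 3 and 2 in the last, beside 2759, 2499, 1580 and 604 of all 14360 genes. SLC30A1 was 0.57 ± 0.34 more enriched with TIA1 than with G3BP2 on the log2 scale (95% interval -0.12 to 1.27, edgeR's adjusted p = 0.364). Its enrichment with DDX6 differed by -0.85 ± 0.36 under arsenite against unstressed (95% interval -1.59 to -0.11), with edgeR's adjusted p at 1. That of MTF1 differed by -0.88 ± 0.35 (95% interval -1.59 to -0.17), also with edgeR's adjusted p at 1, and these were the 2 members below 0.05 before adjustment. For MT2A the 95% intervals ran from -1.53 to 1.72 for TIA1 against G3BP2 and from -1.77 to 1.67 for DDX6 with and without arsenite. Differences in either direction within these intervals remain compatible with the data.

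The inputs of the 3 lines under arsenite did not differ in any member by edgeR or DESeq2, nor at an unadjusted p below 0.05. Of all tested genes 4.14% differed between the TIA1 and G3BP2 lines. The share was 0.877% for the lines with TIA1 and DDX6, and 0.787% for those with G3BP2 and DDX6. MT1X showed the widest distance, at 8.57 ± 1.01 CPM in the G3BP2 input and 4.19 ± 0.35 CPM in the DDX6 input (1.04 ± 0.55 on the log2 scale, edgeR's adjusted p = 0.495). Bait and line cannot be told apart in this design.

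The zinc exporters of the SLC30 family were more often higher than lower in the labelled captures. Of 7 tested, SLC30A1 included, 6 were higher and 0 lower with TIA1, 3 and 0 with G3BP2, 4 and 1 with DDX6 under arsenite and 6 and 1 with unstressed DDX6. Of all tested genes 19.4% to 22.9% were higher and 16.4% to 19.6% lower, so that higher calls were also the more frequent among all genes. Their median log2 difference was 0.82, 0.45, 0.81 and 0.64 in that order, beside 0.02, -0.01, -0.02 and 0.01 for all tested genes. Most tested exporters have long transcripts, from 4360 to 7898 bases apart from SLC30A3 at 2260, beside a median of 3044 for tested genes. How much of the family's difference goes with length was not tested. SLC30A4, which loads zinc into vesicles, rose by 1.72 ± 0.28 with TIA1 (edgeR's adjusted p = 9.4e-06) and by 1.27 ± 0.27 with G3BP2 (adjusted p = 0.000263, edgeR). SLC30A6, a zinc transporter of the secretory pathway, rose by 1.01 ± 0.19 with TIA1 (edgeR's adjusted p = 9.66e-05). SLC30A9, a mitochondrial member of the family, rose by 1.25 ± 0.16 with DDX6 under arsenite (edgeR's adjusted p = 8.2e-07) and by 1.21 ± 0.16 in unstressed cells (adjusted p = 1.22e-06, edgeR). The member that fell was SLC30A3, known for loading zinc into synaptic vesicles, by 1.19 ± 0.45 and 1.29 ± 0.42 in the DDX6 captures (edgeR's adjusted p = 0.0338 and 0.0124), and it lost the first call without replicate 2 of the capture (-0.60, adjusted p = 0.326) or replicate 1 of the input (-0.51, adjusted p = 0.542), with -2.55 without replicate 1 of the capture. It lost the second without replicate 1 of the capture (-1.08, adjusted p = 0.109) or replicate 2 of the input (-1.16, adjusted p = 0.0896). Scaled to total counts both SLC30A3 calls were lost (-0.66 and -0.83, adjusted p = 0.281 and 0.132, edgeR), and the first also with the DDX6 arsenite libraries alone (-1.22, adjusted p = 0.138). With the length trend removed, and without a test, SLC30A4 stood at 1.36 and 0.95, SLC30A6 at 0.72 and SLC30A9 at 1.06 and 0.95, each lower than above by more than its SE.

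The zinc importers of the SLC39 family divided. Of 10 tested, 4 were higher and 1 lower with TIA1, 5 and 1 with G3BP2, 6 and 1 with DDX6 under arsenite and 4 and 1 with unstressed DDX6, beside the same 19.4% to 22.9% higher and 16.4% to 19.6% lower of all genes, and their median log2 differences were -0.03, 0.45, 0.44 and 0.34. SLC39A6, a zinc importer of the plasma membrane, rose by 1.019 ± 0.17 with TIA1 (edgeR's adjusted p = 1.69e-05), by 0.96 ± 0.16 with DDX6 under arsenite (adjusted p = 3.13e-05, edgeR) and by 1.11 ± 0.16 in unstressed DDX6 cells (edgeR's adjusted p = 4.14e-06). SLC39A14, which also carries iron and manganese, rose by 1.29 ± 0.17 with G3BP2 (edgeR's adjusted p = 4.26e-07) and by 0.98 ± 0.16 with DDX6 under arsenite (adjusted p = 2.49e-05, edgeR), and SLC39A10, another importer, rose by 1.15 ± 0.20 with G3BP2 and by 0.86 ± 0.19 in unstressed DDX6 cells (edgeR's adjusted p = 2.73e-05 and 0.000535). The 1 that was lower in all 4 was SLC39A4, the importer of the gut lining, at -1.11, -1.18, -1.20 and -0.92 (edgeR's adjusted p = 0.0126, 0.00373, 0.00531 and 0.0192). Its calls outside DDX6 under arsenite were lost without single libraries: with TIA1 without replicate 1 of the capture (-0.88) or 2 of the input (-0.78), with G3BP2 without replicate 1 of the capture (-0.78) or of the input (-0.95), and in unstressed cells without replicate 2 of the capture (-0.81) or 1 of the input (-0.74). Scaled to total counts all 4 calls of SLC39A4 were lost (-0.45, -0.65, -0.66 and -0.47), and with no filter those with TIA1 (-0.91) and in unstressed cells (-0.74). With the length trend removed, and without a test, SLC39A14 stood at 1.01 and 0.79 and SLC39A10 at 0.83 and 0.61. Under arsenite the inputs of the DDX6 line showed a rise in 1 of 7 exporters, SLC30A1 itself, and in 0 of 10 importers, beside 0.362% of all genes. Of the importers DESeq2 also called 0, and 0 stood below an unadjusted p of 0.05 by edgeR.

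Across all 24 libraries the gene whose log2 level followed SLC30A1 most closely was MCL1 (r = 0.918), a short-lived survival protein, followed by SERP1 (r = 0.851) and H3F3B (r = 0.843). For MT1X they were IER2 (r = 0.893), MYL6 (r = 0.885) and HIST1H2AE (r = 0.884), and for MT2A AC005912.1 (r = 0.914), SNORD9 (r = 0.913) and SNHG5 (r = 0.912). MTF1 had no close neighbour, the nearest being CTTNBP2 (r = 0.627), ALMS1 (r = 0.614) and AC010969.2 (r = 0.609). Between members, MT1X and MT2A were the most alike (r = 0.632), SLC30A1 and MT1X stood at 0.256 and SLC30A1 and MT2A at -0.188. These correlations describe libraries that share lines, treatments and capture, and carry no test.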

How the data were processed

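RNA was sequenced in 24 libraries, and the values used are raw read counts per gene, deposited by the authors as 1 table and not normalised. Per the submitters' processing notes the reads were handled with cutadapt 1.18, FastQC 0.11.8, HISAT2 2.1.0, SAMtools and HTSeq 0.7.2 on GRCh38; their settings, strand and multiple mapping included, are not given in the sources used here. Here genes were filtered with filterByExpr (14360 of 57992 kept), scaled by TMM and fitted with edgeR 4.0.16 in R 4.3.3 as 12 groups of 2 libraries, with quasi-likelihood tests and Benjamini-Hochberg adjustment over all genes kept; the test was tested on simulated data. Depth limits the metallothioneins, which have few counts per library, and the limit for a count of 0 covers counting error only. Members were always reported; other zinc genes were named if past the threshold with the largest change, up to 3 a direction; likeness took the 3 highest r of log2 CPM (prior count 2). The members and lists were chosen with earlier results of these data known. Alternatives were RLE scaling, total counts, no filter, DESeq2 1.42.0, own libraries only, a replicate block, each library left out, and 2 added after the data were seen.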

Additional observations from a re-analysis of the deposited data

Results flagged for a closer look

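SLC30A7, a zinc transporter of the Golgi, was more enriched with TIA1 than with G3BP2 under arsenite, by 0.97 ± 0.27 on the log2 scale (edgeR's test of the difference itself, adjusted p = 0.0353, n = 2 libraries a group). Its enrichment was 0.88 with TIA1 and -0.09 with G3BP2. In this comparison 1 of 7 tested SLC30 genes and 0 of 10 tested SLC39 genes passed, beside 3.61% of all tested genes. The direction held in 16 of 16 alternatives, and the call in 7 of the 15 that carry a test. The call was lost without either TIA1 capture, either TIA1 input, replicate 2 of the G3BP2 capture or either G3BP2 input (adjusted p of edgeR 0.0588 to 0.172), and with no filter (0.067).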

How the results depend on the processing

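Of 1032 tested values of members under an alternative, 920 kept their direction and their side of the threshold, 66 changed sign, 29 lost a call and 17 gained one. Of 64 values with the length trend removed, which carry no test, 23 moved by more than 1 SE; where no cause is named, the cause was not tested. Unless said otherwise values are log2 changes. Replicate numbers were not taken as pairing the libraries: the correlation of replicate differences between capture and input was 0.168 with TIA1, 0.0402 with G3BP2, 0.389 with DDX6 under arsenite and -0.0042 unstressed. A replicate block over all libraries changed no call of a member (MT1X with DDX6 under arsenite, -1.68). A replicate block within bait and treatment, added after the data were seen, gave for capture against input -1.35 for MT1X with TIA1 and 0.41 for SLC30A1 with DDX6 under arsenite, -0.68 for MTF1 under arsenite in labelled captures, and 0.078 for MT2A in the difference of DDX6 enrichment with and without arsenite.

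Capture against input with the length trend removed, added after the data were seen and without a test, gave 0.50 and -0.073 for SLC30A1 with TIA1 and G3BP2. It gave -0.24, -1.05, -0.60 and 0.025 for MT1X with TIA1, G3BP2, DDX6 under arsenite and DDX6 unstressed, -1.76, -1.67 and -1.69 for MT2A with TIA1, G3BP2 and DDX6 unstressed, and -0.50, -0.73 and 0.075 for MTF1 with the same 3. Against no-probe captures the same removal gave 0.56, 0.14 and -0.36 for SLC30A1 and -0.36, -0.30 and -0.58 for MTF1 with TIA1, G3BP2 and DDX6 under arsenite, and 0.82 and -0.025 unstressed. Total counts, whose values include the shift in the median of all genes, gave 0.78 and 0.95 for SLC30A1 with G3BP2 and DDX6 under arsenite. For MTF1 they gave 0.50, 0.080 and 0.786 with TIA1, G3BP2 and DDX6 unstressed, and for MT1X -1.14 with DDX6 under arsenite. Against no-probe captures with DDX6 under arsenite they gave 0.40 for SLC30A1 and 0.13 for MTF1. For MT2A they gave -0.098 (with no filter -0.089) in the enrichment of DDX6 against TIA1 and 0.046 (DESeq2 0.0053) in that of DDX6 with and without arsenite; under arsenite -0.007 for MTF1 in inputs and -0.021 for MT2A in no-probe captures. No filter gave 0.048 for MTF1 with TIA1. Own libraries only gave -1.33 for MT1X with TIA1, which then passed, and -1.68 for MT1X with DDX6 under arsenite, which was lost, and lost the calls at 1.54 for SLC30A1 and 3.59 for MT1X under arsenite in no-probe captures. MTF1 between the TIA1 and G3BP2 inputs stood at 0.0024 with RLE scaling, 0.005 with own libraries and 0.0016 with DESeq2.

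Leaving out 1 library at a time gave these ranges. Capture against input ran from 0.70 to 0.90 for SLC30A1 and from -0.49 to 0.12 for MTF1 with TIA1, and with DDX6 under arsenite from -0.12 to 0.86 for SLC30A1 and from -1.76 to -1.59 for MT1X. Labelled against no-probe capture ran from -0.20 to 0.41 and from -0.26 to 0.36 for MTF1 with TIA1 and G3BP2, with DDX6 under arsenite from -0.66 to 0.34 for SLC30A1 and from -2.09 to 0.20 for MT2A, and from -2.24 to 0.37 for MT1X unstressed. No-probe capture against input ran from -0.66 to 0.38 for MT2A with TIA1, from -0.28 to 2.06 for MT1X with DDX6 under arsenite, and unstressed from -0.22 to 0.40 for SLC30A1, -1.55 to 0.56 for MT1X and -0.20 to 0.19 for MTF1. The difference of enrichment ran from -0.71 to 0.52 for MT2A and -0.054 to 0.56 for MTF1 (TIA1 against G3BP2), from -0.92 to 0.056 for SLC30A1, -0.74 to 0.31 for MT1X and -0.40 to 0.83 for MT2A (DDX6 against TIA1), from -0.37 to 0.61 for SLC30A1, -0.31 to 0.72 for MT2A and -0.27 to 0.11 for MTF1 (DDX6 against G3BP2), and from -1.19 to 0.92 for MT1X and -0.46 to 0.57 for MT2A (arsenite against unstressed). Arsenite against unstressed ran from 0.81 to 1.46 for SLC30A1 in inputs, in no-probe captures from 1.075 to 1.93 for SLC30A1, 2.00 to 4.86 for MT1X, -1.24 to 1.05 for MT2A and -0.17 to 0.22 for MTF1, and from -0.21 to 0.77 for SLC30A1 in labelled captures. Between inputs it ran from -0.078 to 0.030 for SLC30A1 and -0.20 to 0.14 for MTF1 (TIA1 and G3BP2), from -0.093 to 0.56 for SLC30A1, -0.20 to 0.83 for MT2A and -0.11 to 0.24 for MTF1 (TIA1 and DDX6), and from -0.070 to 0.58 for SLC30A1 and -0.90 to 0.14 for MT2A (G3BP2 and DDX6).

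Counts of genes called moved by over 1.5 times in several comparisons. Capture against input called 5138, 5495, 5420 and 6104 genes with TIA1, G3BP2, DDX6 under arsenite and DDX6 unstressed, and at least 3283, 3547, 3401 and 3871 with a library left out. Labelled against no-probe capture with DDX6 under arsenite called 6130, and 3399 at the lowest. No-probe capture against input called 2, 24, 0 and 2 genes, and at most 73, 269, 135 and 407. Differences of enrichment called 518, 338, 7 and 3, ranging over 135 to 1278, 114 to 998, 2 to 228 and 1 to 17. Arsenite against unstressed called 165, 345 and 564 in inputs, no-probe and labelled captures, ranging over 20 to 749, 8 to 1496 and 104 to 1856. The inputs of the lines differed in 594, 126 and 113 genes, ranging over 94 to 1517, 21 to 403 and 32 to 321.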
